A study of Homo sapiens with 32 samples.

Results

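Translation initiation and elongation factors were followed here as a gene family in HEK293T, an established line of human embryonic kidney origin that expresses SV40 large T antigen. The members were the protein coding genes whose symbols start with EIF1 to EIF6 or with EEF1 or EEF2, without the kinases, binding proteins and methyltransferases that act on these factors, and without pseudogenes and readthrough genes. Of 55 such genes, 51 had at least 10 reads in at least 6 of the 32 libraries and are the members, out of 60662 gene IDs counted. The rule used read depth and names only, and no comparison between groups. The family was chosen with earlier results of these data known.

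The study sequenced polyadenylated RNA after chemical inhibition of METTL3, the enzyme that places most N6-methyladenosine (m6A) on mRNA. The inhibitor was STM2457, given at 20 µM in 0.2% DMSO, and the controls received 0.2% DMSO. In the knockdown experiment, STM2457 or DMSO was present for 6 h, with or without 20 nM siRNA against YTHDF2, an m6A binding protein that recruits mRNA decay factors. This gave STM2457 with YTHDF2 siRNA, DMSO with YTHDF2 siRNA, STM2457 alone and DMSO alone, in 3 libraries each. The siRNA was transfected 24 h after seeding, STM2457 or DMSO was added 42 h after transfection and cells were harvested at 48 h. In the 9 h experiment, 4 libraries came from STM2457 and 4 from DMSO. In the emetine experiment, STM2457 or DMSO for 6 h was combined, for the last 2 h, with 1.8 µM emetine, which blocks ribosome movement along mRNA, or with DMSO in its place. Its groups were STM2457 with emetine, DMSO with emetine, STM2457 alone and DMSO alone, in 3 libraries each. The libraries without YTHDF2 siRNA are called WT in the labels, and whether the protocol's control siRNA was given to them is not stated. All groups share 1 cell line, and whether replicates were grown as separate cultures is not stated. The p-values therefore cover the spread among these libraries, which may be technical.

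Translation starts when a small ribosomal subunit that carries initiator tRNA, bound by the GTPase eIF2, is recruited to the capped end of an mRNA by the cap-binding complex eIF4F. The multisubunit scaffold eIF3 joins these parts, eIF1 and eIF1A guide the scan for the start codon, and eIF5B joins the large subunit. eIF2B reloads eIF2 with GTP and is the step that stress kinases block. During elongation eEF1A brings aminoacyl-tRNA to the ribosome and eEF2 moves the ribosome along by a codon. Many mRNAs of the translation machinery, elongation factors among them, begin with a C and a run of pyrimidines, the 5′ terminal oligopyrimidine (TOP) tract, through which their translation is tied to growth signals.

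The bases around the start sites are shown because the members split by them, and because both kinds occur among the mRNAs that moved most with emetine. Of the 51 members, 43 had an entry in the RefSeq promoter table (GRCh38.p14). In 12 of the 43 (27.9%) the annotated first base was a C that opened a run of at least 5 pyrimidines, against 4.7% of 15301 protein coding genes and 68.3% of 63 ribosomal protein genes with an entry. The sense strand was read at the annotated start only. The windows run from 15 bases before the start, 30 bases in all, with the pyrimidine run from the start in capitals.
EEF1A1, chr6:73521018-73521047, minus strand: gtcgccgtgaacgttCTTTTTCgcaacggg
EEF2, chr19:3985449-3985478, minus strand: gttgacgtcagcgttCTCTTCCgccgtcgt
EIF4A2, chr3:186783562-186783591, plus strand: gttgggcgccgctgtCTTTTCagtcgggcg
EIF4B, chr12:53006441-53006470, plus strand: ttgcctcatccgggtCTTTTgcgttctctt
EIF3F, chr11:7987322-7987351, plus strand: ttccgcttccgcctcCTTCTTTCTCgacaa
EIF3D, chr22:36529152-36529181, minus strand: gcgcgcgcatgtttcCTCTTTTCCTggttt
EIF5B, chr2:99337374-99337403, plus strand: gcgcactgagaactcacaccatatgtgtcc
EIF5, chr14:103334222-103334251, plus strand: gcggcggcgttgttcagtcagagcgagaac
EIF2B5, chr3:184135343-184135372, plus strand: ggtggcagcttccttgcggaagtggtgacc
The first 6 hold a run of at least 5 pyrimidines. EIF5B, EIF5 and EIF2B5 start with a purine. The other members with the run were EIF3K, EIF3M, EIF2A, EIF2D, EIF2S3 and its near-identical copy EIF2S3B.

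The study's title names m6A in coding regions, so the letters GGACT, a frequent setting of m6A in mRNA, were counted on the sense strand of 1 annotated coding transcript a gene. They occurred in the coding sequence of 36 of 51 members (70.6%), against 72.6% of 19537 genes, with a median of 0.93 and 0.97 occurrences per kb. The sites of the members that moved the same way in every STM2457 setting are shown with GGACT in capitals and 10 bases on each side. Positions count from the first base of the coding sequence.
EIF2B1, coding bases 177 to 181: tgtgtggtgtGGACTcctctgtggc
EIF3A, coding bases 2658 to 2662: tttctagaaaGGACTctcgttgggg
EIF3A, coding bases 3061 to 3065: acctagacgaGGACTggatgaggac
EIF2B2, the other such gene, held GGACT at no place in its coding sequence and at 4 places after it. A match is a string of letters; methylation was not measured.

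Libraries held between 21781514 and 42303951 gene counts, and the members took between 1.85% and 2.45% of them. Levels are in CPM, which scales the reads of a gene to a common library total. METTL3 was detected in all libraries, at 91.5, 88.4, 91.2 and 91.4 CPM in STM2457 9 h and 91.1, 91.1, 89.0 and 84.8 CPM in DMSO 9 h. YTHDF2 mRNA was at 44.5, 43.1 and 42.2 CPM with YTHDF2 siRNA in DMSO, against 179, 182 and 174 CPM in DMSO alone. YTHDF2 mRNA was also higher in STM2457, at 582, 617 and 656 CPM without siRNA and 76.2, 74.0 and 80.5 CPM with it. All 6 genes listed for the HEK293 line were present, while 0 of 6 blood and 0 of 4 hepatocyte genes had a median of 1 CPM or more. Of the lists for other cells, 2 of 6 fibroblast genes (COL1A1 and COL3A1) and 1 of 4 keratinocyte genes (KRT10) did.

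Levels are compared between genes as CPM per kb of annotated exon. This length joins all annotated exons of a gene, so it can exceed that of the transcripts present and lower the value. It was 14.067 kb for EIF4E and 7.188 kb for EIF2B5. In DMSO 6 h of the knockdown experiment EEF2, the translocase, was the most abundant member at 895 ± 13 CPM per kb (SD, n = 3). EEF1A1, which delivers aminoacyl-tRNA, followed at 563 ± 11, and EIF5A, which helps ribosomes past difficult peptide bonds and carries hypusine, at 435 ± 9.0. EIF3I, a small eIF3 subunit, was at 343 ± 2.5 and EEF1B2, which reloads eEF1A with GTP, at 242 ± 3.3. EIF1 (169 ± 5.8) and EIF4G2 (160 ± 8.6) stood next, and their libraries overlapped. The 5 eIF2B subunits were all low, between 6.49 ± 0.14 for EIF2B5 and 25.6 ± 0.67 for EIF2B1. Among paralogs EEF1A2, the eEF1A of neurons and muscle, stood at 18.5 ± 1.2, EIF5A2 at 4.53 ± 0.37 and the cap-binding protein EIF4E at 3.96 ± 0.07.

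**Figure D1:**
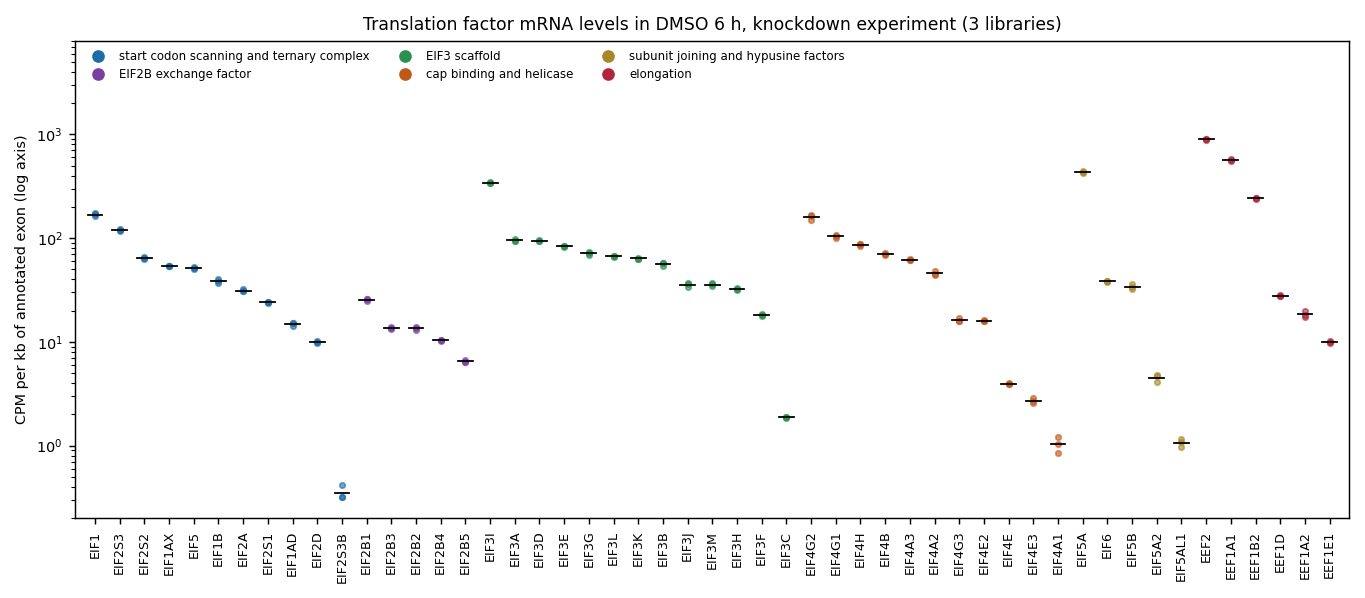
CPM per kb of annotated exon (log axis) of the 51 members in the 3 DMSO 6 h libraries of the knockdown experiment. Points are libraries, bars are means, and colours are roles. EEF2 is highest at 895 CPM per kb and EIF2S3B lowest at 0.352 CPM per kb.

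Some of these levels cannot be taken at face value. EIF4A1, the main eIF4A helicase, had only 78 to 280 reads per library, and its exons overlap the readthrough gene SENP3-EIF4A1 on the same strand (5 to 27 reads). EEF1G had 0 reads in all 32 libraries and shares exons with an overlapping gene that had 2 to 23. EIF3C had 183 to 699 reads, and its near-identical copy EIF3CL had 0 to 9. EIF3CL, EIF4E1B (0 to 3 reads) and EEF1G fell outside the read rule, and EIF2S3B (8 to 46 reads, at least 10 in 31 libraries) lay just inside it. EIF5AL1 and EIF2S3B are near-identical to EIF5A and EIF2S3, and EEF1A1 has many processed copies, so reads of these genes may be shared. The strand setting of the counting is not given, so EEF1E1, EIF4E3 and EIF6, which overlap other genes, are uncertain in the same way.

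Changes are given as log2 changes fitted by edgeR after TMM scaling, which holds the typical gene near 0 (medians of all genes between -0.02 and 0.04), and a gene is called changed at an adjusted p under 0.05. In bulk RNA, fewer cells and less RNA per cell cannot be told apart. Scaling to the ribosomal protein genes instead moved the median of all genes by -0.26 for STM2457 at 6 h in the knockdown experiment, -0.17 in the emetine experiment, 0.17 at 9 h and 0.44 for emetine. Scaling to the ERCC spike-ins moved it by -0.37, -0.13 and 0.49 for the comparisons that have them. Directions are therefore relative to the typical gene. The value after ± is the SE of the fit unless it is named as an SD.

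At 6 h STM2457 moved the members little. In the knockdown experiment 13 of 51 were higher and 10 lower in STM2457 than in DMSO, where 22.9% and 22.1% of all 16662 genes were called, and none of these passed 1.5-fold, against 13.6% of genes. In the emetine experiment, without emetine, 10 were higher and 15 lower, against 26% and 21.9% of 15817 genes, again none past 1.5-fold, against 12.9% of genes. In both experiments 8 were higher and 7 lower, where 19.6% and 15% of 15583 genes were, and 0 went opposite ways. The 8 higher ones were EEF1A1, EEF1B2, EIF1B, EIF2A, EIF2B2, EIF3A, EIF4A2 and EIF5. The member medians were 0.03 and 0.00. By role, 3 of 5 eIF2B subunits were lower in the knockdown experiment and 4 of 5 in the emetine experiment, with EIF2B2 alone higher in both. Of the 11 factors of start codon selection and the ternary complex, 5 and 4 were higher. Without STM2457 replicate 3 the first count of higher members was 7, and it was 7 and 8 without DMSO replicates 1 and 2. Replicate 3 of STM2457 also had more ribosomal protein reads (8.02% of counts, against 6.78% and 6.86% in the other STM2457 libraries and 6.25% to 6.37% in DMSO), whose part in the result was not tested. EIF5A2 (0.33), EEF1E1 (0.33) and EEF1B2 (0.27) lost their calls without it, at log2 changes of 0.16, 0.14 and 0.09. EEF1B2 also lost it without any 1 of the 3 DMSO libraries (log2 changes of 0.25 to 0.27), EEF1E1 without DMSO replicate 1 (0.30) and EIF5A2 without DMSO replicate 3 (0.25). With ribosomal protein scaling 0 members were higher and 34 lower in the knockdown experiment and 1 and 35 in the emetine experiment, and scaled to spike-ins 0 and 16, and 1 and 19. Most calls over all genes were then lower too: with ribosomal protein scaling 1245 genes were higher and 7361 lower of 16662 in the knockdown experiment, and 2198 and 6696 of 15817 in the emetine experiment. Scaled to spike-ins they were 398 and 5023, and 2092 and 4679.

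The 3 experiments with STM2457 alone share no library, and 9 members were called in the same direction in each. EIF2B2 and EIF3A were higher (2 of 51, where 16.3% of 15252 genes were higher in each), and EIF2B1, EIF2B4, EIF2B5, EIF2D, EIF3G, EIF4G2 and EIF4H were lower (7 of 51, where 11.1% of genes were). With STM2457 also set against DMSO within YTHDF2 siRNA and within emetine, EIF2B2 and EIF3A remained higher and EIF2B1 lower in all 5 settings, where 9.45% and 4.96% of genes were. The call of EIF2B5 in the knockdown experiment (-0.15) was lost without DMSO replicate 3, and that of EIF2B2 within YTHDF2 siRNA was lost without any 1 of the 6 libraries other than replicate 1 of STM2457 with siRNA (log2 changes of 0.14 to 0.19).

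EIF2B1 encodes the alpha subunit of eIF2B, part of the regulatory core that phosphorylated eIF2 binds. In the knockdown experiment it was at 75.7, 73.0 and 77.0 CPM in STM2457, against 94.2, 94.2 and 90.0 CPM in DMSO. At 9 h it was at 87.1, 94.3, 94.0 and 91.7 CPM in STM2457 and 116, 120.0, 117 and 123 CPM in DMSO. In both, every STM2457 library lay below every DMSO library, and the log2 changes were -0.30 ± 0.05 (SE, adjusted p = 4.32e-05) and -0.37 ± 0.03 (SE, adjusted p = 4.3e-10). The change was -0.42 ± 0.04 in the emetine experiment, -0.32 ± 0.05 within YTHDF2 siRNA and -0.34 ± 0.04 within emetine. It stayed called lower when scaled to ribosomal protein genes in all 5 settings (-0.20 to -0.59), and when scaled to spike-ins in the 4 settings that have them (-0.43 to -0.67). In the 6 h settings both scalings moved the median of all genes down, by -0.08 to -0.37, so they could hardly remove a call of this direction. At 9 h ribosomal protein scaling moved that median by 0.17, against the direction of the call.

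EIF2B2, the beta subunit of the same complex, went the other way. It averaged 89.6 ± 9.0 CPM in STM2457 and 73.8 ± 2.5 CPM in DMSO in the knockdown experiment (SD, n = 3 each). In the emetine experiment it was at 87.5, 86.8 and 84.1 CPM in STM2457 and 73.6, 77.2 and 74.1 CPM in DMSO. The groups did not overlap in either, with log2 changes of 0.28 ± 0.06 and 0.20 ± 0.04, but neither call held under the other scalings. The change was 0.01 in the knockdown experiment and 0.03 in the emetine experiment when scaled to ribosomal protein genes, and -0.10 and 0.07 when scaled to spike-ins. The catalytic subunit EIF2B5 (-0.31), its partner the gamma subunit EIF2B3 (-0.69) and the delta subunit EIF2B4 (-0.59) were lower at 9 h. EIF2B3 was at 29.8, 30.3, 31.8 and 28.9 CPM in STM2457 9 h, against 48.0, 51.9, 49.2 and 46.1 CPM in DMSO 9 h. With EIF2B4 it made up the 2 members that fell by at least 1.5-fold at 9 h, where 4.59% of genes did.

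EIF3A, the largest eIF3 subunit and part of its core, was the one eIF3 gene called higher in STM2457 in each of the 3 experiments. It was at 823, 882 and 771 CPM in STM2457 and 667, 691 and 671 CPM in DMSO at 6 h. At 9 h it was at 978, 1008, 944 and 959 CPM in STM2457 and 755, 794, 821 and 813 CPM in DMSO. The groups did not overlap at either time, and the log2 changes were 0.29 ± 0.06 (SE, adjusted p = 0.000715) and 0.29 ± 0.03 (SE, adjusted p = 5.84e-08), with 0.41 ± 0.04 in the emetine experiment. In the knockdown experiment the change was 0.03 when scaled to ribosomal protein genes and -0.06 when scaled to spike-ins, while at 9 h it was 0.46 under ribosomal protein scaling.

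At 9 h most members were lower relative to the typical gene. In STM2457 37 of 51 members were lower and 2 higher, where 32.5% and 32.2% of 15834 genes were called, and the member median was -0.20, against 0.00 for all genes. All 13 eIF3 subunits were called, EIF3A higher and the other 12 lower, with a median of -0.36. EIF3E, a subunit also known as INT6, was at 274, 309.6, 296 and 299 CPM in STM2457 and 429, 426, 444 and 458 CPM in DMSO, a log2 change of -0.57 ± 0.04 (SE, adjusted p = 3.89e-13). EIF3M, another subunit, was at 172, 196, 180.0 and 179.8 CPM in STM2457 and 256, 261, 262 and 268 CPM in DMSO (-0.52 ± 0.03). EIF3G (-0.49), which binds RNA, and EIF3D (-0.42), which can bind the cap, followed. The ribosomal protein genes were themselves lower at 9 h, and when scaled to them 20 members were lower and 12 higher, against 2405 and 7531 of 15834 genes: 8 eIF3 subunits stayed lower, EIF3L, EIF3B, EIF3J and EIF3C were no longer called (-0.01, -0.02, -0.08 and -0.22), and EIF2S3 turned from lower to higher.

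**Figure D2:**
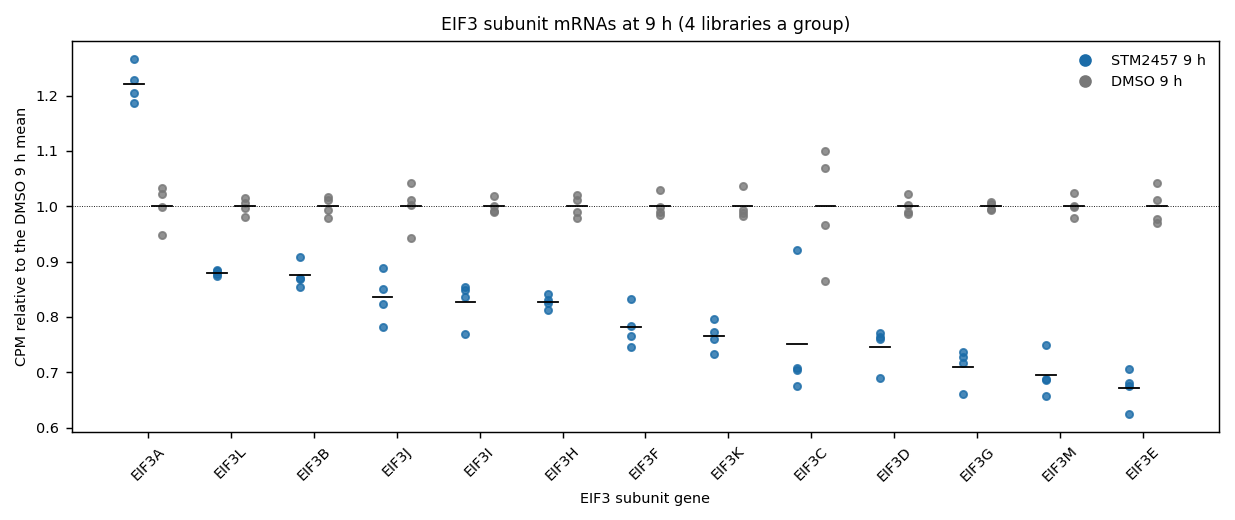
CPM of the 13 eIF3 subunit genes at 9 h, each divided by the mean of the 4 DMSO 9 h libraries. Blue points are STM2457 libraries and grey points DMSO libraries, with bars at the means. EIF3A lies above its DMSO libraries and the other 12 below theirs on average, of which 4 were no longer called when scaled to ribosomal protein genes.

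Outside eIF3, EIF4H, a helper of the eIF4A helicase, was at 202, 212, 207 and 214 CPM in STM2457 9 h and 291, 298, 297 and 304 CPM in DMSO 9 h (-0.51 ± 0.03, adjusted p = 1.3e-13). EIF6, which keeps the large subunit apart from the small one, was lower too (-0.47). EIF2S1, the eIF2 alpha subunit that stress kinases phosphorylate, was at 106, 109, 112 and 106 CPM in STM2457 and 148, 152, 148 and 150.0 CPM in DMSO (-0.46 ± 0.03). EIF4G2, also called DAP5, which supports initiation without eIF4E, was at 1274, 1278, 1298 and 1283 CPM in STM2457 and 1713, 1722, 1749 and 1759 CPM in DMSO (-0.44 ± 0.03). In each of these the groups did not overlap. The most abundant members moved little: EEF2 by -0.07 ± 0.03 and EEF1A1 by -0.08 ± 0.04, neither of them called, while EIF5A was lower (-0.34).

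The STM2457 effect at 9 h was set against that at 6 h in the knockdown experiment, in 1 fit over the 14 libraries without siRNA; the time and the experiment cannot be told apart. The effect was more negative at 9 h for 29 of 51 members and more positive for 2, where 16.8% and 17.2% of 16749 genes were called. The largest negative differences were EIF3E (-0.57 at 9 h and 0.13 at 6 h, a difference of -0.69 ± 0.10, adjusted p = 3.7e-05), EEF1E1 (-0.55 ± 0.13, adjusted p = 0.00218), a synthetase complex protein, EIF3M (-0.53 ± 0.09, adjusted p = 0.000137) and EIF2B3 (-0.51 ± 0.09, adjusted p = 0.000197). The effects at each time come from the fit of their own experiment, so they need not subtract exactly. At 6 h EIF3E was at 502, 495.5 and 653.5 CPM in STM2457 and at 498 to 503 CPM in DMSO. EIF3M was at 249, 252 and 310 CPM against 255 to 272 CPM, and EEF1E1 at 24.9, 21.4 and 32.3 CPM against 20.5 to 21.3 CPM. The highest value was each time replicate 3 of STM2457, so the 6 h effects of these genes rest partly on that library. The positive ones were the cap scaffolds EIF4G1 (0.26 ± 0.07, adjusted p = 0.00899), whose effect was 0.06 at 9 h and -0.18 at 6 h, and EIF4G3 (0.22 ± 0.08, adjusted p = 0.039). EIF4G3 was no longer called with DESeq2 (a log2 difference of 0.17), nor without any 1 of 10 of the 14 libraries (0.14 to 0.23), and the difference of EIF4G1 was 0.19, no longer called, without STM2457 9 h replicate 2. On the scale of the ribosomal protein genes, which were lower at 9 h and higher at 6 h, 22 of 51 members were more positive at 9 h and 1 more negative, as were 9615 and 69 of 16749 genes. That one was EIF3E, at -0.26.

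The largest log2 changes of any member, in the 9 comparisons of 2 groups, came with YTHDF2 siRNA. In DMSO 27 of 51 members were lower and 11 higher with the siRNA than without it, where 29.3% and 33.1% of 16662 genes were called, and the member median was -0.17, against 0.02 for all genes. Lower by at least 1.5-fold were 7 members, where 13.3% of genes were. Under STM2457 26 were lower and 14 higher, where 30.1% and 29.8% of genes were called, and 5 were lower by at least 1.5-fold, where 12.8% of genes were. These 2 comparisons share no library, and 25 members were lower and 10 higher in both, where 23.8% and 24.9% of genes were. Scaled to spike-ins 9 members were lower and 1 higher in DMSO, against 2229 and 2653 of 16662 genes, and scaled to ribosomal protein genes 24 and 10, against 4017 and 4577. The comparison in DMSO shares its DMSO libraries with that of STM2457 alone, so values of the 2 are set side by side only.

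EIF5A2, the tissue-restricted paralog of EIF5A, was at 9.07, 7.39 and 9.10 CPM with YTHDF2 siRNA in DMSO, against 26.4, 26.6 and 23.0 CPM in DMSO alone. It was at 10.4, 10.3 and 10.4 CPM with the siRNA in STM2457, against 29.3, 27.7 and 38.3 CPM in STM2457 alone. The libraries with siRNA all lay far below those without it, and the log2 changes were -1.57 ± 0.11 (SE, adjusted p = 6.69e-10) and -1.62 ± 0.11 (SE, adjusted p = 3.82e-10).

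EIF4G2 was at 519, 499 and 511 CPM with the siRNA in DMSO and 1428, 1436 and 1303 CPM in DMSO alone. In STM2457 it was at 466, 502 and 484 CPM with the siRNA and 1115, 1169 and 1291 CPM without it. The groups did not overlap, with log2 changes of -1.45 ± 0.06 (SE, adjusted p = 1.18e-12) and -1.30 ± 0.06 (SE, adjusted p = 4.79e-12). Of its paralogs, EIF4G1 changed by 0.14 ± 0.06, which was not called, and EIF4G3 by -0.24 ± 0.07 in DMSO.

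EIF4E, the cap-binding subunit of eIF4F, was at 26.9, 27.3 and 28.1 CPM with the siRNA in DMSO and 54.9, 55.3 and 56.8 CPM in DMSO alone, without overlap. Its log2 change was -1.02 ± 0.06 (SE, adjusted p = 1.7e-11) in DMSO and -1.02 ± 0.05 (SE, adjusted p = 1.82e-11) in STM2457. EIF4E2, a cap-binding repressor, changed by -0.34 ± 0.07 and EIF4E3 by -0.26 ± 0.06 in DMSO. The falls of EIF5A2, EIF4G2 and EIF4E stayed called under both other scalings in DMSO and in STM2457.

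Smaller falls in DMSO were those of EIF2S1 (-0.73 ± 0.07), EIF5A (-0.70 ± 0.06), EIF4B (-0.63 ± 0.05), which stimulates eIF4A, and EIF3B (-0.63 ± 0.05), an eIF3 core subunit. EIF2S1 was at 85.3, 78.9 and 82.3 CPM with the siRNA and 135, 138 and 137 CPM without it. Of the 11 cap-binding and helicase genes 7 were lower and 0 higher, and of the 13 eIF3 subunits 8 were lower and 3 higher (EIF3F, EIF3J and EIF3L). Over all genes 29.3% were lower and 33.1% higher. Scaled to spike-ins 4 of the 11 and 1 of the 13 were lower, and 0 of either were higher, against 2229 lower and 2653 higher of 16662 genes. With ribosomal protein scaling 6 and 7 were lower, and 0 and 2 higher, against 4017 lower and 4577 higher of 16662 genes.

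Among the 11 members that were higher, EEF2 was at 5248, 5054 and 5186 CPM with the siRNA in DMSO and 3644, 3619 and 3545 CPM in DMSO alone, a log2 change of 0.52 ± 0.06 (SE, adjusted p = 4.22e-07). It was the one member with a 1.5-fold rise under STM2457 (0.62 ± 0.06, adjusted p = 5.26e-08), where 11.3% of genes had one. EIF2B2 (0.42 ± 0.06), EIF1AD (0.39 ± 0.05), which is named for its eIF1A domain, EEF1A2 (0.34 ± 0.07) and EIF2D (0.32 ± 0.05), which can load initiator tRNA without eIF2, were also higher. Of the 5 eIF2B subunits 3 were higher and EIF2B3 was lower (-0.44 ± 0.07), where 33.1% and 29.3% of genes were. Scaled to spike-ins in DMSO, EIF2B2 (0.44), EIF1AD (0.41), EEF1A2 (0.35) and EIF2D (0.34) were no longer called. No eIF2B subunit was called under that scaling.

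**Figure D3:**
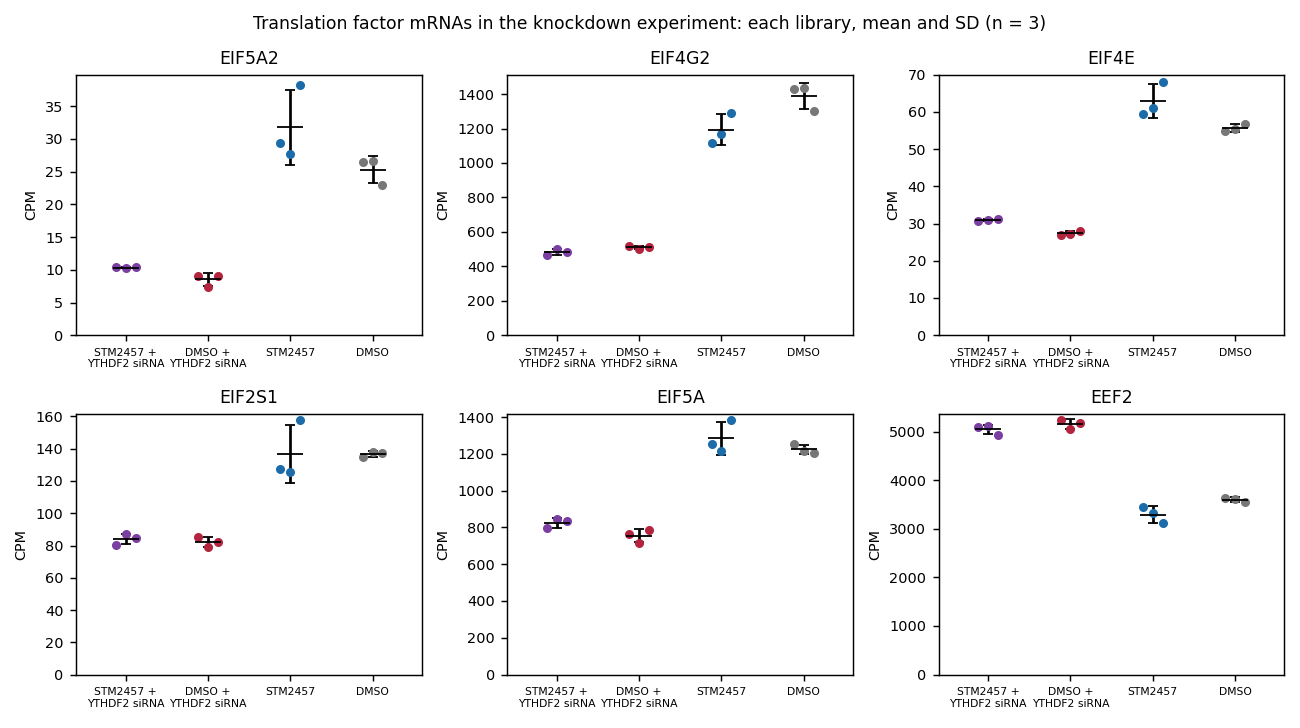
CPM of 6 members in each library of the knockdown experiment, with mean and SD (n = 3 per group). From left to right the groups are STM2457 with YTHDF2 siRNA, DMSO with YTHDF2 siRNA, STM2457 alone and DMSO alone. EIF5A2, EIF4G2, EIF4E, EIF2S1 and EIF5A are lower and EEF2 higher in both groups with siRNA.

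Within YTHDF2 siRNA, STM2457 left 5 members higher and 1 lower than DMSO, where 15.5% and 15.4% of genes were called. The lower one was EIF2B1, at 86.2, 89.5 and 89.1 CPM with STM2457 and siRNA and 114, 105 and 112 CPM with DMSO and siRNA. The higher ones were EIF3A (0.24 ± 0.06), EIF5 (0.20 ± 0.06), which triggers GTP hydrolysis by eIF2, EIF1B (0.20 ± 0.05), EIF2B2 (0.18 ± 0.06) and EIF4E (0.17 ± 0.06). Scaled to ribosomal protein genes or to spike-ins none of these 5 was called, and EIF2B2 and EIF4E turned negative under both, while EIF3A, EIF5 and EIF1B turned negative under spike-in scaling only. Without replicate 1 or 2 of DMSO with siRNA, or replicate 2 or 3 of STM2457 with siRNA, 3 were higher. The call of EIF4E was lost without any 1 of the 6 libraries other than replicate 3 of DMSO with siRNA (log2 changes of 0.16 to 0.18). For 0 of 51 members did edgeR call the difference between the STM2457 effects with and without siRNA, where 8.7% of genes were called. At an unadjusted p under 0.05 there were 3 such members, DESeq2 called 2, and edgeR called 6 without replicate 3 of STM2457 alone and 2 without replicate 1 of STM2457 with siRNA.

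With emetine most members were lower relative to the typical gene. Without STM2457 37 of 51 were lower and 5 higher in emetine than in DMSO, where 28.3% and 33.9% of 15817 genes were called, and the member median was -0.21, against 0.04 for all genes. With STM2457 in both groups 29 were lower and 5 higher, where 29.4% and 30.4% of genes were called. The comparisons share no library, and 29 members were lower and 3 higher in both, where 22.2% and 24.7% of genes were. The direction depended on the scaling. The ribosomal protein genes had a median of -0.46, and their share of counts was 5.34% to 5.45% in emetine and 6.56% to 7.03% in DMSO. Scaled to them 40 members were higher and 1 lower, and scaled to spike-ins 39 and 0, as most genes then were (11477 and 11558 of 15817 higher).

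EIF4A2, the helicase paralog of EIF4A1, stood out from the rest. It was at 361, 363 and 369.6 CPM in emetine and 225, 218 and 256 CPM in DMSO. With STM2457 it was at 400.4, 409 and 402 CPM in emetine and 276, 244 and 277 CPM without it. The emetine libraries lay above all others, and the log2 changes were 0.65 ± 0.04 (SE, adjusted p = 2.15e-14) and 0.60 ± 0.04 (SE, adjusted p = 1.21e-13). It was the one member with a 1.5-fold rise without STM2457, where 14% of genes had one. It was also higher when scaled to ribosomal protein genes or to spike-ins, but so were most genes (11477 and 11558 of 15817). Those scalings could therefore hardly remove its call. EIF5, at 538, 556 and 544 CPM in emetine and 457, 470.5 and 458 CPM in DMSO, changed by 0.24 ± 0.03 (SE, adjusted p = 4.89e-08). EIF2B5 (0.23 ± 0.04), EIF2B2 (0.15 ± 0.04) and EIF1B (0.14 ± 0.04) were also higher, EIF1B not without DMSO replicate 2 (0.09). With STM2457 in both groups EIF2B5 (0.42) and EIF5 (0.19) were higher too.

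On the lower side EIF5B, the GTPase of subunit joining, was at 184, 174 and 187 CPM in emetine and 265, 293 and 260.5 CPM in DMSO. The groups did not overlap, and its log2 change of -0.59 ± 0.05 (SE, adjusted p = 9.95e-13) was the only one past 1.5-fold downwards, where 3.45% of genes were. It was still called lower when scaled to ribosomal protein genes (-0.15), and not when scaled to spike-ins (-0.10). EIF5A2 (-0.53 ± 0.09), EIF5A (-0.49 ± 0.03), EEF1A1 (-0.48 ± 0.03) and EEF1B2 (-0.41 ± 0.04) followed, and these 4 were at -0.04, 0.00, 0.01 and 0.08 under spike-in scaling, none of them called. EEF1A1 was at 3799, 3906 and 3896 CPM in emetine and 5303, 5288 and 5595 CPM in DMSO. The 6 genes grouped under elongation include EEF1E1, the synthetase complex protein, which was not called. Of these 6 genes 5 were lower and 0 higher, and of 13 eIF3 subunits 11 were lower and 0 higher. Over all genes 28.3% were lower and 33.9% higher. Under spike-in scaling 3 of the 6 and 9 of the 13 were higher and 0 lower, against 11558 higher and 227 lower of 15817 genes.

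By start sequence, the 12 members with a pyrimidine run had a median of -0.30 with emetine, 10 lower and EIF4A2 alone higher. The 31 members with an entry but no run had a median of -0.15, 19 lower and 4 higher. Over all genes 28.3% were lower and 33.9% higher. The 8 without an entry had a median of -0.30. EEF1A1 (-0.48), EEF2 (-0.32) and EIF4B (-0.21) were lower, while EIF4A2, with a run of the same kind, was higher (0.65). Members without a run were also among the most lowered: EIF5B (-0.59), EIF5A2 (-0.53), EIF5A (-0.49) and EEF1B2 (-0.41). Under spike-in scaling EEF1A1 turned to 0.01, and its call was lost. The run is a description of the annotated start, and the differences between these groups were not tested. With STM2457 at 6 h in the knockdown experiment the 12 had a median of 0.09 and the 31 a median of 0.00, and at 9 h the medians were -0.11 and -0.21.

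By GGACT in the coding sequence, STM2457 at 6 h in the knockdown experiment gave medians of -0.20 for the 4 members with 4 or more, 0.02 for the 32 with 1 to 3, and 0.12 for the 15 with none. At 9 h the medians were -0.10, -0.25 and -0.13, and in the emetine experiment -0.02, 0.00 and 0.05. The order of the medians was the same in the knockdown and emetine experiments at 6 h and different at 9 h. The differences between these groups were not tested, and methylation was not measured.

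**Figure D4:**
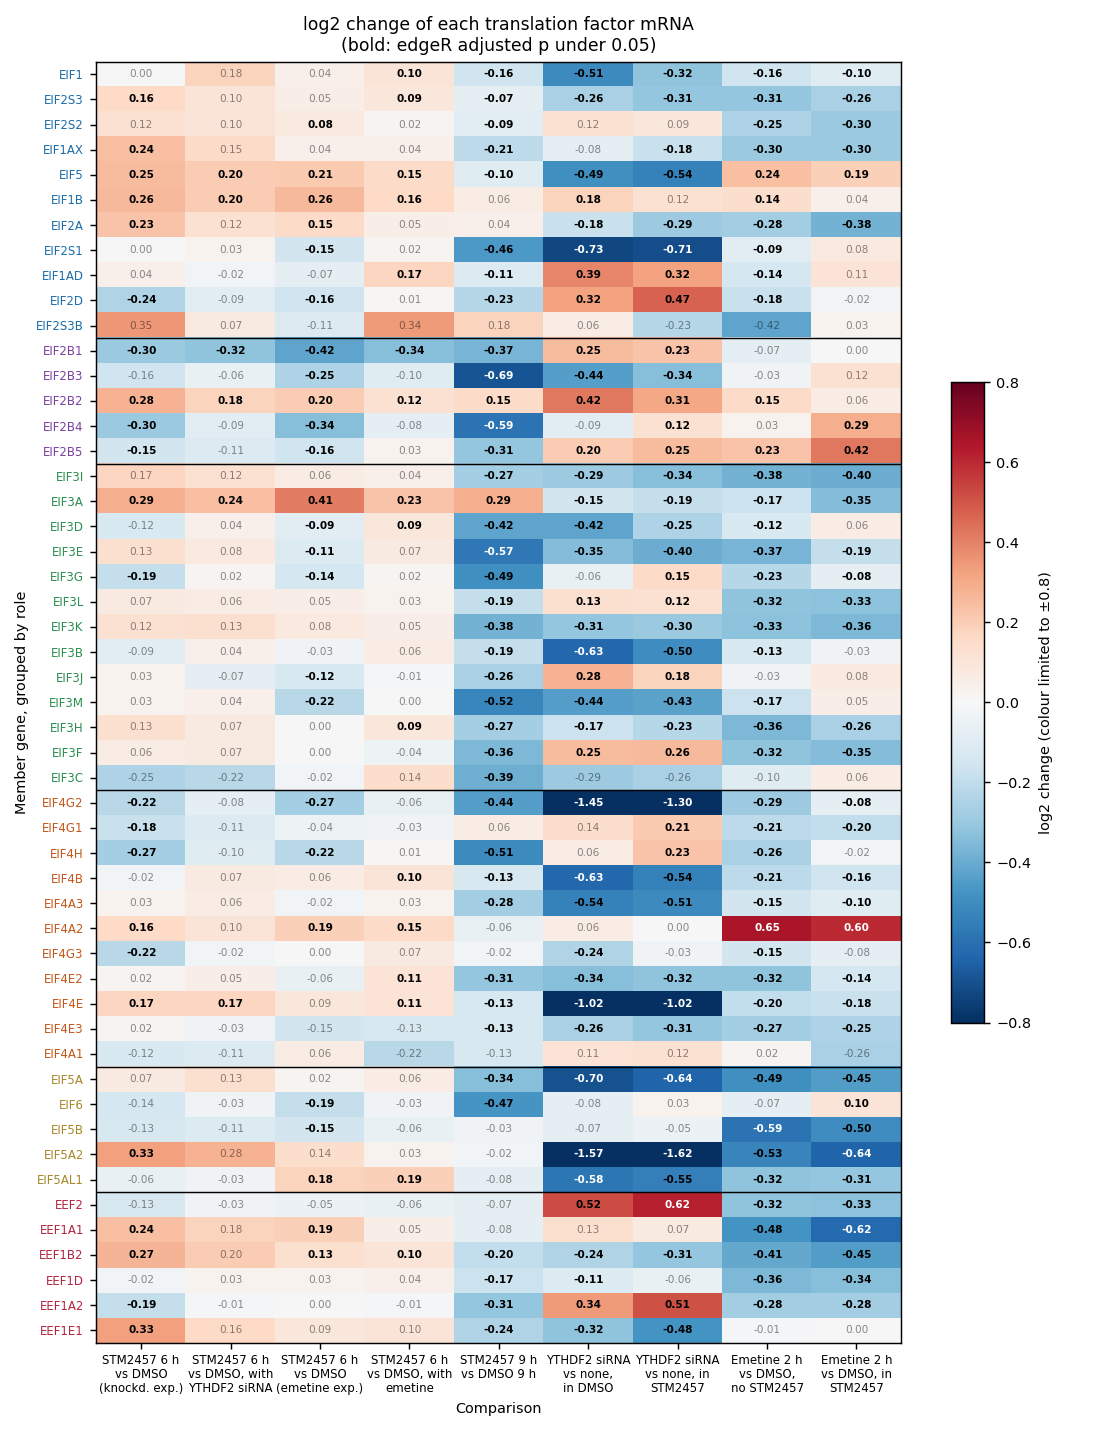
Fitted log2 change of each of the 51 members (rows, grouped by role) in 9 comparisons (columns), printed in the cells and coloured from blue (lower) to red (higher). Bold numbers passed an adjusted p of 0.05. EIF5A2, EIF4G2 and EIF4E fall in both siRNA columns, eIF3 subunits other than EIF3A are lower at 9 h, and EIF4A2 is higher in both emetine columns. All values are relative to the typical gene, and most of the emetine column turns positive when scaled to spike-ins or ribosomal protein genes.

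Within emetine, STM2457 left 15 members higher and 1 lower than DMSO, where 21.6% and 16.2% of genes were called. All were under 1.5-fold, from -0.34 for EIF2B1 to 0.23 for EIF3A. Without 1 library at a time the higher count was 7 to 14: it was 9, 7 and 8 without replicates 1, 2 and 3 of DMSO with emetine, and 8 without replicate 2 of STM2457 with emetine. Scaled to ribosomal protein genes or spike-ins it was 0. Without replicate 1 of DMSO with emetine 2 members were lower. This comparison and those of emetine share libraries. EIF2B1 was at 76.2, 80.7 and 76.7 CPM with STM2457 and emetine and 95.5, 98.0 and 103 CPM with DMSO and emetine, without overlap.

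The STM2457 effect was then compared between cells with and without emetine. It was more positive with emetine for 13 of 51 members and more negative for 2, where 6.71% and 11.1% of genes were called. EIF2B4 changed by -0.08 ± 0.04 with emetine and -0.34 ± 0.05 without it, a difference of 0.26 ± 0.06 (SE, adjusted p = 0.00337). It was at 50.5, 52.9 and 48.6 CPM with STM2457 and emetine and 53.5, 53.2 and 54.6 CPM with DMSO and emetine. Without emetine it was at 40.1, 41.5 and 42.6 CPM in STM2457 and 54.4, 50.6 and 52.7 CPM in DMSO. The STM2457 libraries lay below the DMSO libraries in both settings, by less with emetine.

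EIF4H (0.23 ± 0.05, adjusted p = 0.000667), EIF3M (0.22 ± 0.05, adjusted p = 0.000773), EIF1AD (0.25 ± 0.07, adjusted p = 0.0104) and EIF4G2 (0.21 ± 0.05, adjusted p = 0.00124) showed differences of the same sign. For EIF4H and EIF3M the STM2457 effects were 0.01 and 0.00 with emetine and -0.22 and -0.22 without it. EIF3A (-0.18 ± 0.06, adjusted p = 0.0248) and EEF1A1 (-0.14 ± 0.05, adjusted p = 0.0315) had the 2 negative differences. EIF3A was raised by STM2457 in both settings, by 0.23 with emetine and 0.41 without it. Without replicate 2 of STM2457 with emetine 7 members were more positive, and the 2 negative calls fell to 0 or 1 without any 1 of 10 libraries, all but replicate 1 of DMSO with emetine and replicate 2 of STM2457 with emetine. The differences were then -0.13 to -0.15 for EIF3A and -0.12 to -0.15 for EEF1A1 where the call was lost. With ribosomal protein scaling 13 were more positive and 0 more negative, against 1340 and 933 of 15817 genes. Scaled to spike-ins edgeR called 0 members (7 at an unadjusted p under 0.05), against 227 and 478 of 15817 genes. The differences were then 0.31 for EIF2B4, 0.30 for EIF1AD, 0.28 for EIF4H and 0.27 for EIF3M, with -0.13 for EIF3A and -0.10 for EEF1A1.

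**Figure D5:**
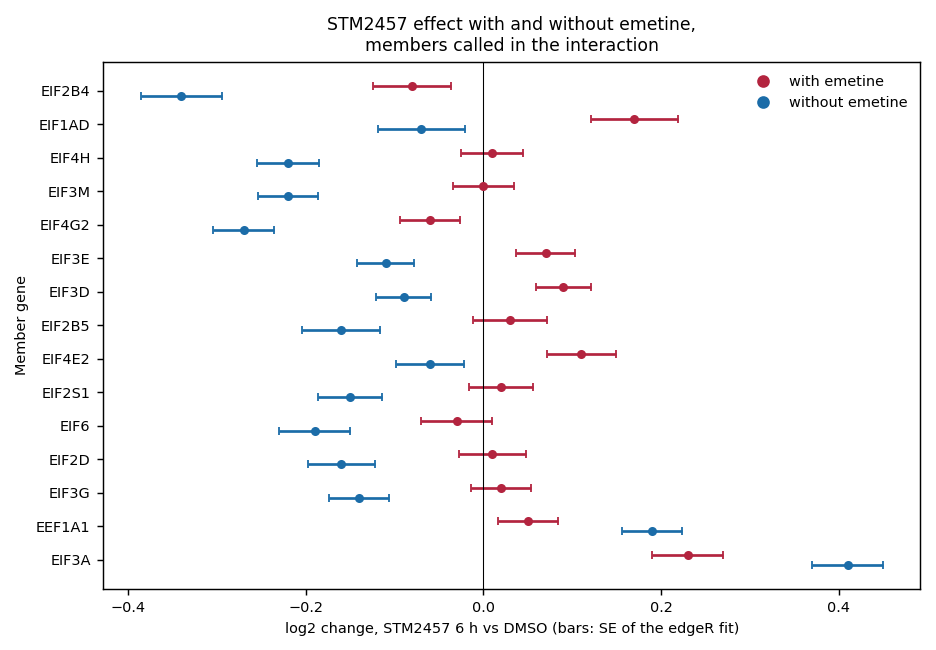
Log2 change of STM2457 6 h against DMSO with emetine (red, above) and without emetine (blue, below) for the 15 members whose effects differed at an adjusted p under 0.05, with the SE of the edgeR fit. In 13 the red point lies to the right, and in EEF1A1 and EIF3A to the left. Under spike-in scaling 0 of these differences were called, where 227 of 15817 genes were called more positive and 478 more negative.

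Related genes of translation were listed for comparison. Over all genes 29.3% were lower and 33.1% higher with YTHDF2 siRNA in DMSO, and 32.5% and 32.2% with STM2457 at 9 h. With emetine the shares were 28.3% and 33.9%. Several of the counts below lie near these shares. Of 20 cytosolic aminoacyl-tRNA synthetases, which charge tRNAs, 13 were lower and 4 higher with YTHDF2 siRNA in DMSO, and 15 were lower and 3 higher with STM2457 at 9 h, with medians of -0.29 and -0.20. Of 10 measured genes of termination, recycling and poly(A) binding, 4 were lower and 3 higher with the siRNA and 9 lower and 0 higher at 9 h (medians -0.03 and -0.25). Of 14 measured kinases and inhibitors of translation factors, 2 were lower and 5 higher with the siRNA and 5 lower and 4 higher at 9 h (medians 0.01 and 0.03). Of 14 enzymes that modify translation factors, 3 were lower and 3 higher with the siRNA and 5 lower and 5 higher at 9 h (medians 0.06 and 0.06). Of 10 mitochondrial translation factors, 5 were lower and 2 higher with the siRNA and 7 lower and 3 higher at 9 h (medians -0.16 and -0.22). With emetine the medians of these 5 lists were -0.16, -0.18, -0.19, 0.11 and -0.01, with 14, 8, 8, 1 and 1 genes lower and 2, 0, 4, 6 and 3 higher.

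The 79 ribosomal protein genes gave a median of 0.28 with STM2457 at 6 h in the knockdown experiment (61 higher, 0 lower) and -0.16 at 9 h (61 lower, 1 higher). With YTHDF2 siRNA in DMSO 15 were lower and 7 higher, and with emetine 78 were lower and 0 higher. At 6 h 22.9% of all genes were higher and 22.1% lower, and the shares for the other comparisons are those given above. In the same 4 comparisons the member medians were 0.03, -0.20, -0.17 and -0.21.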

How the data were processed

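Reads per gene were analysed in 32 poly(A)-selected, strand-specific RNA-seq libraries of HEK293T cells. The authors deposited unnormalized counts of reads for each Ensembl gene, and 24 libraries also list 92 ERCC spike-ins. The submitters' processing notes name featureCounts, Subread 2.0.0, STAR 2.7.3a, SAMtools 1.9, Trimmomatic, cutadapt (1.18 and 4.0) and FastQC 0.11.8, and the build GRCh38.p12. No strand setting of the counting, annotation release or spike-in procedure was given in the sources used.

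From these counts, edgeR 4.0.16 (R 4.3.3; TMM scaling, filterByExpr, glmQLFit and glmQLFTest) was fitted to all genes of each experiment by group means, with p-values adjusted by Benjamini-Hochberg across every gene in the fit and called under 0.05. All adjusted p-values printed are from these fits. The difference between 9 h and 6 h used 1 fit of 14 libraries. CPM values are TMM-scaled within each experiment, and per kb means per kb of exon in GENCODE 29. Gene counts per library were lowest in the emetine experiment (21781514 to 28053353), higher in the 9 h experiment (22510323 to 34677704) and highest in the knockdown experiment (37694945 to 42303951). Exact copies among libraries were looked for and not found.

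Alternatives were DESeq2 1.42.0, RLE scaling, no low-count filter, scaling to 79 ribosomal protein genes or to spike-ins, a replicate block, and leaving out each library. The fits were tested on simulated data. Named values were drawn from the 5 most positive and 5 most negative called members of each comparison (4 for differences of effects). Members called the same way in the STM2457 experiments and members shown for their role were added. Not all of them are printed for every comparison. Members and gene lists were chosen with earlier results of these data known.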

Additional observations from a re-analysis of the deposited data

Results flagged for a closer look

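In the 4 STM2457 9 h libraries, 1 library stood far from the other 3 for 7 members, out of 102 groups of 4 libraries examined; chance flags about 1 in 20 groups. EIF3C was at 10.7 CPM in replicate 2 and at 7.87 to 8.25 CPM in the others. EIF4G1 was at 1363 CPM and EIF5B at 382 CPM in the same replicate, against 1277 to 1286 CPM and 348 to 353 CPM. EIF3D was at 252 CPM in replicate 1 and 278 to 282 CPM in the others. EIF4E3 was at 28.2 CPM in replicate 3, against 25.9 to 26.3 CPM. EIF1 was at 614 CPM and EEF1E1 at 21.3 CPM in replicate 4, against 567 to 574 CPM for EIF1 and 21.4 CPM in each of the others for EEF1E1.

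The STM2457 effect differed between cells with and without emetine, by the interaction term, for EIF2B4 (0.26), EIF1AD (0.25), EIF4H (0.23), EIF3M (0.22), EIF3A (-0.18) and EEF1A1 (-0.14). It differed between 9 h and 6 h for EIF3E (-0.69), EEF1E1 (-0.55), EIF3M (-0.53), EIF2B3 (-0.51), EIF4G1 (0.26) and EIF4G3 (0.22), where the time and the experiment cannot be told apart.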

How the results depend on the processing

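Counts of members past the threshold are given as the alternatives moved them by over 1.5 times. With DESeq2, STM2457 left 8 members higher within YTHDF2 siRNA, 2 were higher in the interaction with the siRNA and 1 was more positive at 9 h than at 6 h, as it was with RLE scaling. Without the low-count filter, 8 were higher within the siRNA, 7 within emetine, 8 in the interaction with emetine and 1 at 9 h against 6 h. Replicate numbers did not clearly pair the samples. Correlations of same-numbered libraries ran from -0.352 to 0.582 with knockdown, from -0.132 to 0.303 with emetine and from -0.109 to 0.083 at 9 h. Their medians were 0.092, -0.0315 and -0.017, against -0.048, -0.015 and 0.07 for differently numbered libraries. Some pairing in the knockdown experiment is therefore possible. With the replicate block, 9 members were higher within the siRNA, the other 23 counts stayed within 1.5 times, and none of 101 named values lost its call.

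Scaled to ribosomal protein genes, higher and lower members were 0 and 34 for STM2457 at 6 h in the knockdown experiment, 0 and 11 within the siRNA, 12 and 20 at 9 h, 1 and 35 in the emetine experiment, 0 and 10 within emetine, 40 and 1 for emetine, 44 and 1 for emetine under STM2457, and 22 and 1 for 9 h against 6 h, with 0 lower in the interaction with emetine. Scaled to spike-ins they were 0 and 16 for STM2457 in the knockdown experiment, 1 higher in the emetine experiment, 0 higher within the siRNA and within emetine, 39 and 0 for emetine, 42 and 0 under STM2457, 0 and 0 in the interaction with emetine, 1 and 9 for the siRNA in DMSO, and 3 and 5 under STM2457. Under ribosomal protein scaling the sign turned for emetine under STM2457 in EEF1B2 (0.06), EIF5A (0.05) and EIF5B (0.00), for emetine alone in EEF1B2 (0.03), for STM2457 in the knockdown experiment in EEF1B2 (-0.01), and within the siRNA in EIF2B2 (-0.01) and EIF4E (-0.02). Under spike-in scaling it turned for emetine under STM2457 in EEF1B2 (0.09), EIF5A (0.08) and EIF5B (0.03), for emetine alone in EEF1A1 (0.01), EEF1B2 (0.08) and EIF5A (0.00), for STM2457 in the knockdown experiment in EEF1B2 (-0.12), EEF1E1 (-0.08), EIF2B2 (-0.10), EIF3A (-0.06) and EIF5A2 (-0.06), and within the siRNA in EIF1B (-0.11), EIF2B2 (-0.13), EIF3A (-0.07), EIF4E (-0.14) and EIF5 (-0.10). The cause was not tested.

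Leaving out 1 library at a time gave 7 to 14 higher and 8 to 13 lower for STM2457 in the knockdown experiment, 3 to 5 and 1 within the siRNA, 0 to 6 and 0 in the interaction with the siRNA, 2 to 3 and 31 to 39 at 9 h, 0 to 2 and 26 to 34 for 9 h against 6 h, 7 to 9 and 15 to 19 in the emetine experiment, 7 to 14 and 1 to 2 within emetine, and 7 to 14 and 0 to 2 in the interaction with emetine. For the siRNA it gave 9 to 10 and 25 to 27 in DMSO and 10 to 17 and 26 to 27 under STM2457, and for emetine 4 to 5 and 36 to 39 without STM2457 and 4 to 6 and 27 to 30 with it. Of the named values under these omissions, 664 kept their direction and call, 50 lost the call and 0 changed sign. EIF2S3B and EIF4A1, with a median of 20.5 and 169 counts a library, were called in none of these comparisons, and changes of their size may not be detectable at this depth.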
